A study of Mus musculus with 16 samples.

Results

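The Hox genes of the 4 clusters, Hoxa, Hoxb, Hoxc and Hoxd, were examined in hematopoietic stem and progenitor cells from Camkk2 null and wild-type (WT) mice. Members were all probe sets of the array whose only listed gene symbol was Hox followed by a, b, c or d and a number. This gave 33 probe sets, 1 for each of 33 genes, out of 30638 probe sets that named a single gene. They were 8 Hoxa, 9 Hoxb, 9 Hoxc and 7 Hoxd genes. Hoxa7, Hoxa9, Hoxb4, Hoxd3 and Hoxd4 lie on 4 probe sets that list several genes and are not analysed here.

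Hox genes encode homeodomain transcription factors that pattern the body axis of the embryo. Each cluster is read in the order of its genes, and genes with the same number in different clusters are paralogs that arose by duplication. In blood, genes of the Hoxa and Hoxb clusters are known from stem and early progenitor cells, where they decline as cells mature, and HOX proteins bind DNA together with the TALE homeodomain partners MEIS and PBX. MLL (gene Kmt2a) and its partners keep Hox genes active, and the polycomb complexes keep them silent.

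The RNA of sorted cells was hybridised to 16 whole-transcript mouse arrays, with 4 biological replicates in each of 4 groups. The groups were KSL (Lin-, c-Kit+, Sca-1+ bone marrow cells) labelled Camkk2 null, KSL labelled WT, KL (Lin-, c-Kit+, Sca-1- bone marrow cells) labelled Camkk2 null and KL labelled WT. The study lists 16 mice per genotype behind the replicates, without saying how they were divided, and the null mice carry a germline deletion whose extent in the gene is not given in the sources used here. The labels name no treatment, age or strain.

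The deposited values are log2 signals, and a difference of 1 is a doubling. Array medians lay between 5.01 and 5.12, no 2 arrays were identical, and the precision is set by the number of arrays. Camkk2 read 7.14 to 7.93 on the KSL arrays labelled null and 7.11 to 8.02 on those labelled WT, and 7.08 to 7.83 and 6.89 to 7.86 on the KL arrays with these labels. Camkk2 averaged 0.13 lower on the log2 scale on the arrays labelled null than on those labelled WT in KSL (log2 change -0.13, SE 0.24, limma adjusted p = 0.714) and was nearly level in KL (log2 change -0.05, SE 0.24, adjusted p = 0.922). In every group Camkk2 was higher on replicates 1 and 2 (7.81 to 8.02 over the 4 groups) than on replicates 3 and 4 (6.89 to 7.48), a split that the labels do not name. With this split as a term, added after seeing the data, the Camkk2 change had an SE of 0.073 in KSL (adjusted p = 0.22) and 0.109 in KL (adjusted p = 0.814). Arrays of different groups from the same side of the split deviated together over all genes in 40 of 48 pairs (correlation above 0), against 5 of 48 pairs from opposite sides. Deviations from a group mean sum to 0 within the group, so these counts depend on each other. The Hox genes that passed without a fold minimum in the comparisons by genotype also passed with this term. Camkk2 was not shown to differ by genotype label, so every direction below rests on the labels, and the groups are called the arrays labelled null and the arrays labelled WT. Kit, the receptor used in the sort, read well above background on average at 9.84. It was lower on the arrays labelled null in KSL (log2 change -0.75, adjusted p = 0.00456, limma) and in KL (log2 change -0.64, adjusted p = 0.000182). Lepr, a receptor of marrow stroma, read 3.71, below background, but 8 of 11 stroma, bone and endothelium markers read above it.

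The probe sets of the 33 Hox genes sat in the lower part of the signal range. Their means over the 16 arrays ran from 3.96 for Hoxa2 to 6.57 for Hoxb9, with a median of 5.53, against a median of 5.88 over all single-gene probe sets. Background was set as the 95th percentile of 1578 probe sets for olfactory receptor, vomeronasal receptor and hair keratin-associated protein genes, which is 5.27. By this measure 20 Hox genes were above background and 13 were near it, against 60.7% of all single-gene probe sets above it. The count depends on where background is drawn, since the 99th percentile of the same genes (6.26) leaves 4 Hox genes and none exceeds the brightest background control set of the array.

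The Hoxa genes above background were Hoxa3, Hoxa4, Hoxa5, Hoxa6, Hoxa10 and Hoxa13, with mean signals of 5.34, 6.24, 5.64, 6.39, 6.47 and 6.11. Hoxa2 (3.96) and Hoxa11 (5.25) were near background. In the Hoxb cluster, Hoxb2, Hoxb3, Hoxb5, Hoxb8 and Hoxb9 were above background at 5.86, 6.16, 5.33, 6.21 and 6.57, and Hoxb1, Hoxb6, Hoxb7 and Hoxb13 were near it at 4.64 to 5.25.

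In the Hoxc cluster, Hoxc4, Hoxc6, Hoxc8, Hoxc9, Hoxc11 and Hoxc12 were above background, at 5.28, 5.98, 5.53, 6.21, 5.59 and 5.53, and Hoxc5, Hoxc10 and Hoxc13 were near it at 4.03 to 4.97. In the Hoxd cluster, Hoxd8, Hoxd9 and Hoxd12 were above it at 6.54, 6.01 and 5.77, and Hoxd1, Hoxd10, Hoxd11 and Hoxd13 were near it at 4.23 to 5.24. Several members lay close to the line: Hoxc4 was the nearest above it at 5.28, and Hoxb1 the nearest below it at 5.25. The signal of a probe set also depends on the base composition of its probes, so the levels of different Hox genes were not ranked against each other. Single arrays differed little, and the spread of a gene from its lowest to its highest array was between 0.22 (Hoxc10) and 0.64 (Hoxb6).

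**Figure D1:**
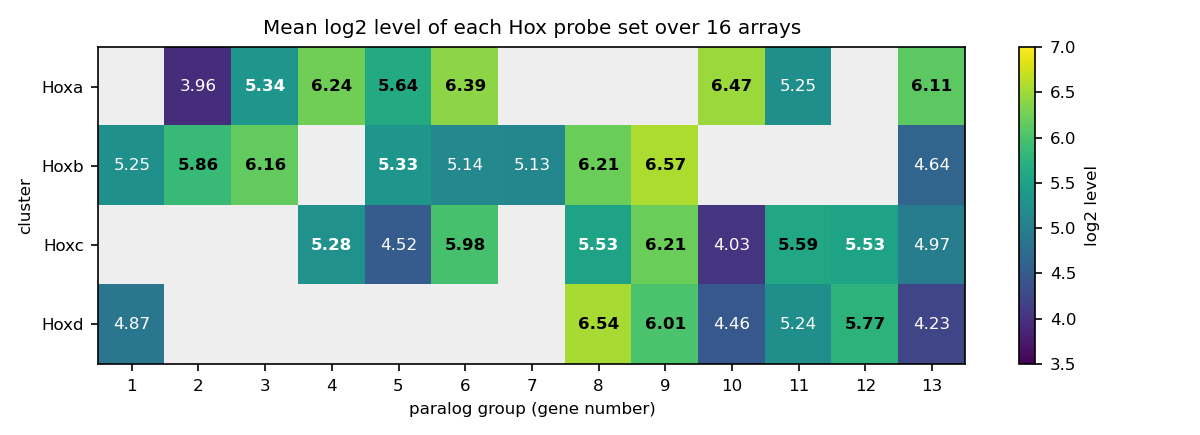
Mean log2 level of each Hox probe set over all 16 arrays, by cluster (rows) and paralog group (columns), coloured by level. Bold values are above the background level of 5.27, and grey cells hold no member; the 33 values run from 3.96 (Hoxa2) to 6.57 (Hoxb9).

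The array carries 23 background control sets, grouped by the number of G or C bases in probes of 25 bases. Their means ran from 2.71 for 3 such bases to a highest value of 7.76 for 23, so that a GC-rich probe can read as high as any Hox gene here without a matching transcript. Promoters and coding sequences of Hox genes are known to be rich in G and C. The sequences of the array probes were not among the files, so a background matched to each Hox probe set was not computed.

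**Figure D2:**
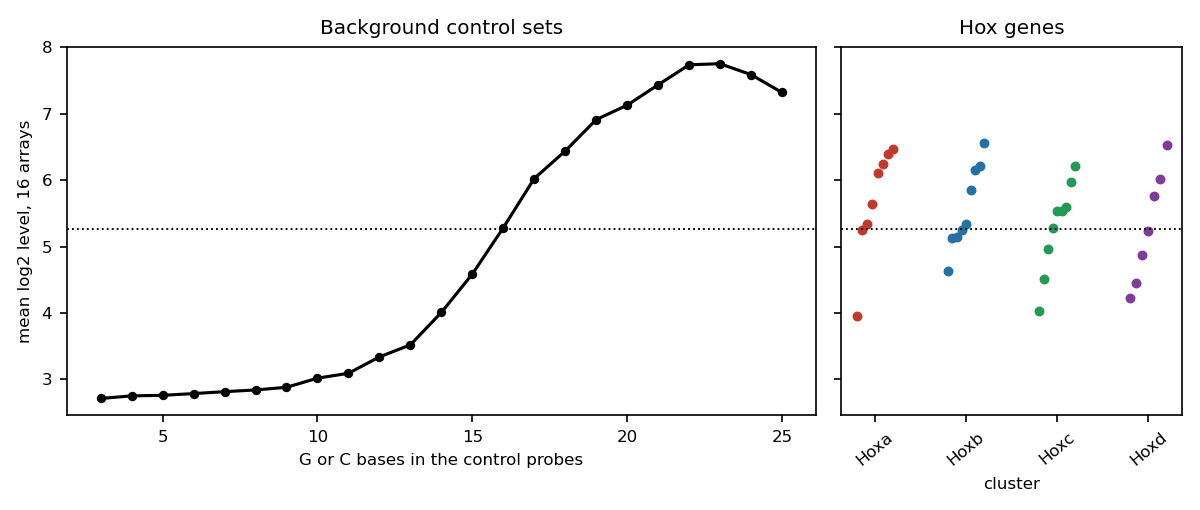
Left, mean log2 level over 16 arrays of the 23 background control sets against the number of G or C bases in their probes of 25 bases. Right, the 33 Hox genes on the same axis, 1 point per gene by cluster, with the background level of 5.27 dotted in both; the brightest control set (7.76) lies above all Hox genes, which end at 6.57.

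The first comparison asked which Hox genes differed between Camkk2 null and WT cells within KSL and within KL. A gene was called where its limma p, adjusted over all genes, was under 0.05 and its difference reached 1.5-fold, which is 0.585 on the log2 scale. None of the 33 Hox genes was called in KSL, against 5.01% of all 30176 genes (1118 lower and 394 higher), by limma. None was called in KL either, against 3.99% of all genes (820 lower and 385 higher). At an unadjusted p under 0.05 with no fold minimum, limma passed 13 Hox genes in KSL, 6 lower and 7 higher, against 35.2% of all genes, and 9 in KL, 5 lower and 4 higher, against 27.9% of all genes. The gene-by-gene test of the study's methods also called 0 in each cell type with the fold minimum, with or without adjustment.

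All 33 changes were small. In KSL they ran from -0.36 (Hoxa10) to 0.21 (Hoxd8), a largest fold of 1.28, and in KL from -0.39 (Hoxa10) to 0.27 (Hoxd12), a largest fold of 1.31. The median log2 change was 0.07 over the 33 Hox genes and 0.05 over all genes in KSL, and 0.05 and 0.03 in KL. In each cell type 9 of the 33 changes, 27.3%, were below 0, against 36.3% of all genes in KSL and 39.4% in KL.

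Without the fold minimum, 5 Hox genes passed an adjusted p of 0.05 in KSL. Hoxa10, Hoxa6 and Hoxa3 were lower, against 10.5% of all genes lower by this rule, and Hoxb13 and Hoxb1 were higher, against 8.50% of all genes higher. In KL, Hoxa10 and Hoxa3 passed, both lower, against 8.69% of all genes lower. No Hox gene was higher in KL, against 7.13% of all genes. These shares are near the background, so the counts do not set Hox genes apart from other genes.

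**Figure D3:**
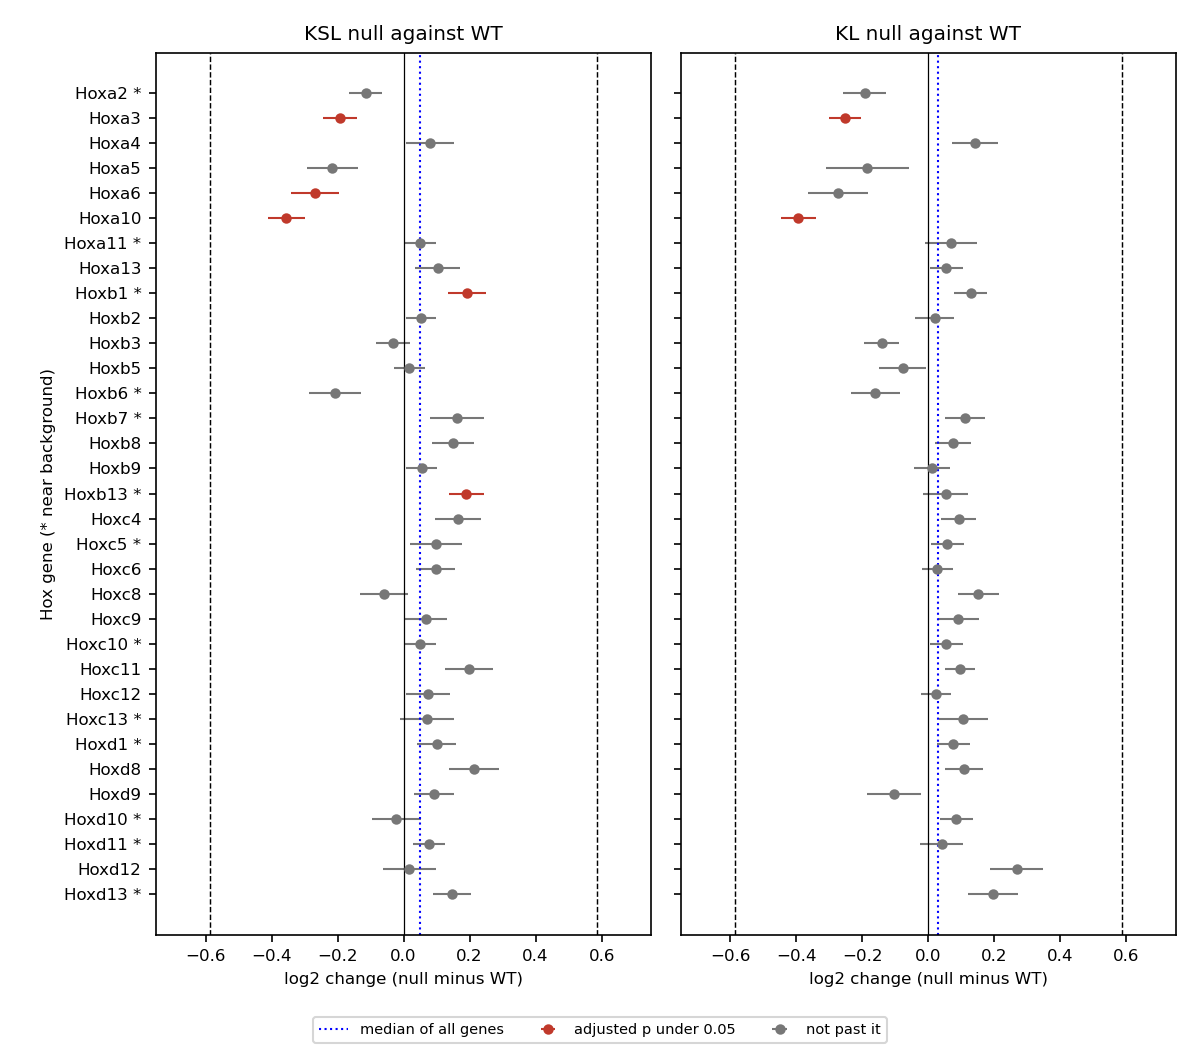
Log2 change, null minus WT, of the 33 Hox genes in KSL (left) and KL (right), with bars of 1 SE from limma (4 against 4 arrays). Red points passed an adjusted p of 0.05, dashed lines mark a 1.5-fold difference, the dotted line the median of all genes, and an asterisk a gene near background; no point reaches a dashed line, and Hoxa10 is the lowest in both panels at -0.36 and -0.39.

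Hoxa10, a posterior Hoxa gene known from myeloid progenitors and leukemia, had the most extreme decrease of the 33. It read 6.36, 6.24, 6.35 and 6.34 in KSL labelled null, against 6.75, 6.73, 6.67 and 6.56 in KSL labelled WT. Its values in KL were 6.27, 6.16, 6.24 and 6.33 on the arrays labelled null and 6.60, 6.58, 6.72 and 6.66 on those labelled WT. All 8 arrays labelled null lay below all 8 labelled WT, as they did for 6.12% of all genes. Of the 33 Hox genes this held for 2, Hoxa10 and Hoxa3, and for none were all null arrays above all WT arrays, against 3.91% of all genes. The log2 change was -0.36 in KSL (SE 0.057, adjusted p = 0.00188, limma), from means of 6.32 ± 0.055 labelled null and 6.68 ± 0.084 labelled WT (SD, n = 4 each). In KL it was -0.39 (SE 0.054, adjusted p = 0.000885), from 6.25 ± 0.072 labelled null and 6.64 ± 0.063 labelled WT (SD, n = 4 each), and Hoxa10 was lower at an adjusted p under 0.05 with every alternative tried in both cell types.

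Hoxa3, an anterior member known from pharyngeal arch and thymus development, read 5.26, 5.32, 5.23 and 5.18 in KSL labelled null, against 5.44, 5.40, 5.52 and 5.41 in KSL labelled WT. Its values in KL were 5.25, 5.16, 5.24 and 5.19 on the arrays labelled null and 5.52, 5.46, 5.49 and 5.38 on those labelled WT. Here too every array labelled null was below every array labelled WT, and the null arrays stood between 5.16 and 5.32, around the background level of 5.27. The change was -0.19 in KSL (SE 0.052, adjusted p = 0.0289, limma) and -0.25 in KL (SE 0.048, adjusted p = 0.00584). In KSL it no longer passed with the replicate number as a block (adjusted p = 0.0619) or without WT replicate 3 or 4 or null replicate 1, 3 or 4, with adjusted p up to 0.0746 over all alternatives.

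Hoxa6, a gene of the middle of the cluster, read 6.42, 6.17, 6.31 and 6.14 in KSL labelled null, against 6.55, 6.60, 6.57 and 6.40 in KSL labelled WT. The groups overlapped by a single array on each side, and the change was -0.27 (SE 0.074, adjusted p = 0.0313, limma). It did not pass by the adjusted gene-by-gene test of the methods or without WT replicate 1, 2 or 3 or null replicate 2, 3 or 4, with adjusted p up to 0.0855 over all alternatives. Its values in KL were 6.04, 6.41, 6.34 and 6.18 on the arrays labelled null and 6.58, 6.63, 6.35 and 6.51 on those labelled WT, a change of the same size, -0.27, that did not pass (SE 0.090, adjusted p = 0.0727). Hoxa5, next to Hoxa6 in the cluster and itself a regulator of blood progenitors, had changes of -0.22 in KSL (SE 0.078, adjusted p = 0.0828) and -0.18 in KL (SE 0.13, adjusted p = 0.388), with overlapping arrays in both.

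**Figure D4:**
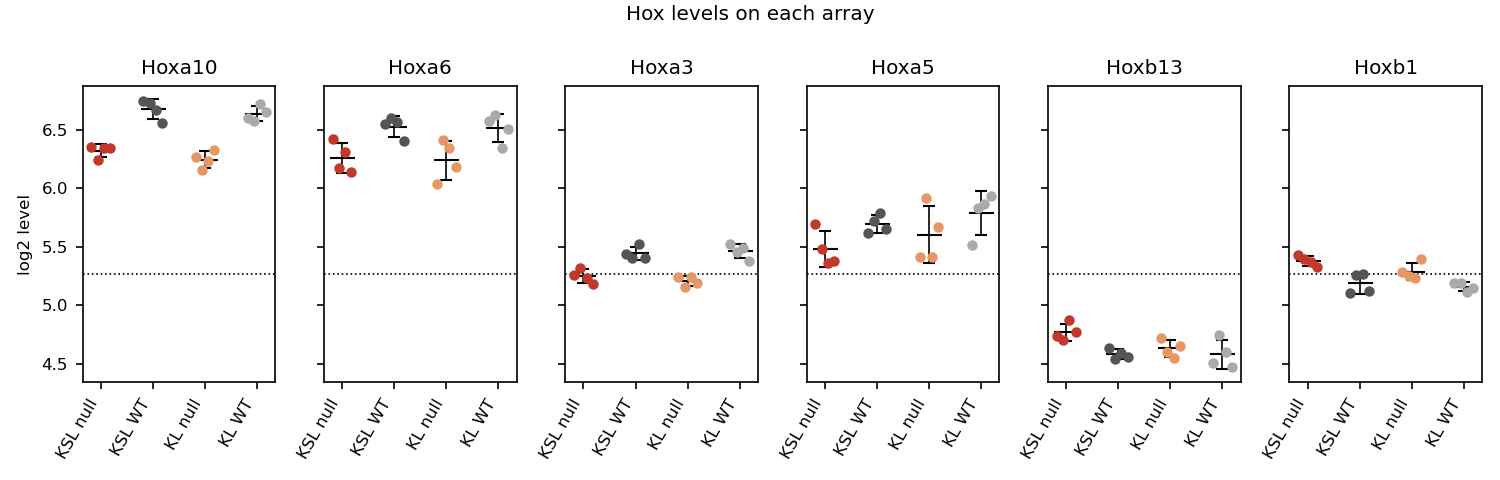
Log2 level on each array of Hoxa10, Hoxa6, Hoxa3, Hoxa5, Hoxb13 and Hoxb1 in KSL null, KSL WT, KL null and KL WT, by label; points are single arrays, bars the mean and SD (n = 4), and the dotted line the background level of 5.27. Hoxa10 and Hoxa3 are lower on all null arrays than on all WT arrays, while Hoxb13 and Hoxb1 stay at or below 5.43.

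The promoters of the 3 Hoxa genes that were lower are shown as the stretches on which MLL and the polycomb complexes are known to act at CG-rich DNA. They are the 250 bases before each start in the RefSeq annotation of GRCm38.p6, all on the minus strand of chromosome 6, with CG dinucleotides in capitals. Hoxa10 has 2 annotated starts, and its windows are chr6:52240855-52241104 (distal) and chr6:52234940-52235189 (proximal). That of Hoxa6 is chr6:52208673-52208922 and that of Hoxa3 chr6:52213068-52213317. The Hoxa3 window lies at the far end of a span that covers Hoxa4, Hoxa5 and Hoxa6, beyond the Hoxa6 start.
Hoxa10 distal: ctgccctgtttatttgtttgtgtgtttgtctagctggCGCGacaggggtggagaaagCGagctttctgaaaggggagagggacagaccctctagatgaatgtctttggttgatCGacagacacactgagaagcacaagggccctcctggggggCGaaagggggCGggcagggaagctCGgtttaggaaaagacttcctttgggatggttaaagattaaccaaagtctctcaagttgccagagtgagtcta
Hoxa10 proximal: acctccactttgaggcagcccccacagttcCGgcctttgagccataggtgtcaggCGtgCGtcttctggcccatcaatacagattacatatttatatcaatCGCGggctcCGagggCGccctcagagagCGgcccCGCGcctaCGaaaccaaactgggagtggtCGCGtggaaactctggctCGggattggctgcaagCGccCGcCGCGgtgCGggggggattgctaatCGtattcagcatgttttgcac
Hoxa6: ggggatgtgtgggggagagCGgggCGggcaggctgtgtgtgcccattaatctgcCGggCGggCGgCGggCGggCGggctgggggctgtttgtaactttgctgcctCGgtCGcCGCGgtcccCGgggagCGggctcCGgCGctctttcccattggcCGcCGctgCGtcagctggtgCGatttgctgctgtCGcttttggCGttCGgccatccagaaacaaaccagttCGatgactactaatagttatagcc
Hoxa3: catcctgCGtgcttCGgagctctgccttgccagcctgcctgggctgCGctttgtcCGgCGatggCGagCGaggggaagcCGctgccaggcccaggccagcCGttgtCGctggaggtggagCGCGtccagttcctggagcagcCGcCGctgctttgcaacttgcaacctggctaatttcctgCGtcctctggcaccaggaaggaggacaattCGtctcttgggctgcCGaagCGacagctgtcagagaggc

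The windows held 7 and 20 CG dinucleotides for Hoxa10 (distal and proximal), 24 for Hoxa6 and 18 for Hoxa3, against a median of 6 over 32851 promoters of the same length. Promoters were listed for 17 of the 33 Hox genes, with 19 starts, and 16 of these 19 had more than 6 CG dinucleotides, with a range of 2 (Hoxd11) to 35 (Hoxa13). The core TGACAG, which MEIS and TGIF proteins recognise, was searched on both strands. It lay in 2 of the 19 Hox promoters, those of Hoxa2 and Hoxa3, against 15.9% of all promoters, and in Hoxa3 it starts 13 bases before the start site on the minus strand of the window. The posterior HOX core TTTATG lay in 2 of the 19 promoters, against 10.8% of all, and the PBX and HOX core TGATNNAT in 4 of the 19, against 7.68%. None of these cores lay in the Hoxa6 or the Hoxa10 windows.

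The Hoxa cluster did not move as a block. Of its 8 genes, 5 (Hoxa2, Hoxa3, Hoxa5, Hoxa6 and Hoxa10) had changes below 0 in both cell types, and Hoxa4, Hoxa11 and Hoxa13 had changes above 0 in both. Hoxa4, which lies between Hoxa3 and Hoxa5, had changes of 0.08 in KSL and 0.14 in KL. Of the 25 Hoxb, Hoxc and Hoxd genes, 21 had changes above 0 in each cell type. Most of all genes did too, since 36.3% in KSL and 39.4% in KL were below 0. The count of 21 became 18 in KSL with quantile normalization and 19 with median centring. The median change was -0.15 over the Hoxa genes in KSL and -0.19 in KL, against medians of 0.05 and 0.02 for Hoxb, 0.07 and 0.09 for Hoxc, and 0.09 and 0.08 for Hoxd. In the RefSeq table the span of Hoxa3 covers those of Hoxa4, Hoxa5 and Hoxa6, so signal of these genes may be shared between their probe sets.

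Hoxb13 and Hoxb1, which passed in KSL with higher values, are both near background. Hoxb13, a gene of the posterior body, read 4.73, 4.71, 4.87 and 4.77 in KSL labelled null, against 4.64, 4.54, 4.59 and 4.56 in KSL labelled WT (log2 change 0.19, SE 0.052, adjusted p = 0.0316, limma). Hoxb1, the first gene of its cluster, read 5.43, 5.40, 5.37 and 5.32 labelled null, against 5.10, 5.26, 5.27 and 5.12 labelled WT (log2 change 0.19, SE 0.057, adjusted p = 0.0427). The KSL groups did not overlap for either gene. In KSL this held for 6 Hox genes higher and 3 lower on the arrays labelled null, and the share of all genes was not computed. In KL the changes were 0.05 for Hoxb13 (SE 0.068, adjusted p = 0.662) and 0.13 for Hoxb1 (SE 0.050, adjusted p = 0.128). The KL groups overlapped for Hoxb13 but not for Hoxb1, which read 5.23 to 5.39 labelled null and 5.11 to 5.19 labelled WT. With the replicate number as a block neither passed (adjusted p = 0.0587 for Hoxb13 and 0.0695 for Hoxb1). Hoxb13 also did not pass with quantile normalization or median centring, nor Hoxb1 by the adjusted gene-by-gene test of the methods, and each of the 2 genes failed under 8 of 17 alternatives. Without single KSL arrays, Hoxb13 failed for WT replicates 2, 3 and 4 and null replicates 3 and 4, and Hoxb1 for WT replicates 1 and 4 and each null replicate, with adjusted p up to 0.134 and 0.112 over all alternatives.

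The background controls moved in the same direction. The mean of the 10 control sets with 16 to 25 G or C bases lay between 7.10 and 7.23 in KSL labelled null and between 6.60 and 7.06 in KSL labelled WT, a difference of 0.23 on the log2 scale. In KL it lay between 6.92 and 7.03 on the arrays labelled null and between 6.74 and 6.86 on those labelled WT, a difference of 0.16. The silent receptor and hair protein genes shifted by a median of 0.07 in KSL and 0.03 in KL. The part of this shift in the Hox changes, higher or lower, was not tested.

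Some markers of maturing cells moved with the label as well. The counts below stand against 1118 lower and 394 higher of all 30176 genes called in KSL. In KL 820 were called lower and 385 higher. Of 5 erythroid markers, 4 (Klf1, Epor, Rhag and Car1) were called higher on the arrays labelled null in both cell types. The mean log2 level of the list over its genes lay between 9.66 and 9.85 in KSL labelled null against 7.50 to 7.83 in KSL labelled WT, and between 9.20 and 9.58 in KL labelled null against 6.95 to 7.45 in KL labelled WT. Of 6 sort and early progenitor markers, 2 were called lower in KSL (Kit and Cd34) and 3 in KL (Kit, Cd34 and Mecom). The list means were 6.90 to 6.98 in KSL labelled null against 7.50 to 7.78 in KSL labelled WT. In these sorted pools, fewer cells of a type and less RNA per cell cannot be told apart, and the part of cell composition in the Hox changes was not tested. Of 6 neutrophil markers, 4 were higher in KSL and 3 in KL, with list means of 8.71 to 9.17 in KSL labelled null against 7.29 to 7.84 in KSL labelled WT. Of 5 lymphoid markers, 3 were lower in each cell type. Of 11 stroma, bone and endothelium markers, 3 were lower in KSL and 2 in KL. Their list means were 5.96 to 5.99 in KSL labelled null against 6.19 to 6.43 in KSL labelled WT. Of these 11 markers 8 read above background, and Cxcl12, Lepr and Cdh5 read below it. Of 5 monocyte and macrophage markers 1 was lower in each cell type, of 4 megakaryocyte markers none was called, and of 4 mast and basophil markers 1 was lower in KSL and 1 higher in KL.

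The second comparison asked whether the genotype change differed between KSL and KL. In a fit of all 16 arrays, none of the 33 Hox genes differed, against 0% of all genes by limma, with a lowest adjusted p of 0.793 among the Hox genes. At an unadjusted p under 0.05, 1 Hox gene passed, against 6.19% of all genes. It was Hoxc8, named here after its values were seen. It read 5.48, 5.66, 5.60 and 5.50 in KSL labelled null and 5.65, 5.78, 5.49 and 5.55 in KSL labelled WT, with overlapping arrays. In KL it read 5.52, 5.58, 5.48 and 5.63 labelled null and 5.46, 5.45, 5.44 and 5.24 labelled WT, with no overlap. In KL the groups did not overlap for 3 Hox genes higher, Hoxc8 among them, and 3 lower on the arrays labelled null. The share of all genes without overlap in KL was not computed, so these counts do not describe Hox genes in particular. For Hoxc8 the genotype change was compared between the cell types. The difference of the changes, KSL minus KL, was -0.21 (SE 0.098, adjusted p = 0.793). For Hoxa10 it was 0.04 (SE 0.075, adjusted p = 0.935), so that no difference between the cell types was detectable with 4 arrays a group.

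The third comparison set KSL against KL within a genotype. None of the 33 Hox genes was called in cells labelled null, against 0.265% of all genes, and none in cells labelled WT, against 0.0828% of all genes, by limma. At an unadjusted p under 0.05, 3 Hox genes passed within the null label (Hoxb2, Hoxd8 and Hoxb13, all higher in KSL), against 12.6% of all genes, and 2 within the WT label (Hoxc8, higher in KSL, and Hoxb5, lower in KSL), against 7.98% of all genes. The Hox differences, KSL minus KL, ran from -0.17 to 0.16 within the null label and from -0.14 to 0.22 within the WT label, at most 1.12-fold and 1.16-fold. Within the WT label Cd34 averaged 11.25 in KSL and 11.41 in KL, and Flt3 9.31 and 9.49, and neither was called. Within the null label Cd34 was called lower in KSL (log2 change -0.80, adjusted p = 0.00149, limma). Few genes of any kind set KSL apart from KL on these arrays, so the Hox counts do not describe Hox genes in particular.

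Among the TALE genes, which include the MEIS and PBX partners of HOX proteins, 2 had larger changes than any Hox gene. Of 10 measured TALE genes, 2 were called lower in each cell type, Meis1 and Tgif1, against 3.70% of all genes in KSL and 2.72% in KL, and none was called higher. Meis1, the partner that binds DNA with HOX proteins in stem cells and leukemia, read 6.63, 6.64, 6.34 and 6.48 in KSL labelled null, against 9.31, 8.98, 8.94 and 8.94 in KSL labelled WT. Its values in KL were 7.46, 7.17, 7.13 and 7.09 on the arrays labelled null, against 9.42, 9.32, 9.25 and 9.33 on those labelled WT. No arrays overlapped, and the log2 change was -2.52 in KSL (SE 0.098, adjusted p = 6.17e-07, limma) and -2.12 in KL (SE 0.082, adjusted p = 9.72e-07), a 5.75-fold and a 4.33-fold decrease. Within the null label Meis1 was also lower in KSL than in KL by 0.69 on the log2 scale (log2 change -0.69, adjusted p = 0.00239), while the genotype change was not shown to differ between the cell types (adjusted p = 0.64).

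Tgif1, a TALE repressor that recognises the same core as MEIS, read 7.61, 7.63, 7.75 and 7.72 in KSL labelled null, against 8.49, 8.42, 8.60 and 8.54 in KSL labelled WT, a change of -0.84 (SE 0.057, adjusted p = 1.04e-05, limma). In KL its change was -0.60 (SE 0.077, adjusted p = 0.00061), just past the fold minimum, and it fell short of the fold minimum without KL WT replicate 3 or 4 or KL null replicate 1 and with quantile normalization, with changes as small as -0.55. The other TALE genes were not called. Pbx2 and Pbx3, HOX partners of the PBX family, had changes of -0.22 (adjusted p = 0.0111) and -0.01 (adjusted p = 0.868) in KSL, and -0.11 (adjusted p = 0.198) and -0.10 (adjusted p = 0.278) in KL. Meis2, a paralog of Meis1, had changes of 0.07 and 0.05 and lay below background at 4.63.

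Of 37 measured regulators of Hox genes, 22 activators and 15 polycomb repressors, 2 were called lower in KSL, against 3.70% of all genes, and 1 in KL, against 2.72%, and none was called higher. The called genes were the repressors Rnf2 and Ezh1 in KSL and Rnf2 in KL. Rnf2, the ubiquitin ligase of polycomb complex PRC1, read 7.29, 7.46, 7.45 and 7.49 in KSL labelled null, against 8.17, 7.97, 8.21 and 8.21 in KSL labelled WT, a change of -0.71 (SE 0.070, adjusted p = 9.64e-05, limma). Its values in KL were 7.66, 7.52, 7.48 and 7.68 labelled null, against 8.22, 8.36, 8.11 and 8.16 labelled WT, a change of -0.62 (SE 0.069, adjusted p = 0.000274) that was -0.575, under the fold minimum, without KL WT replicate 2.

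Ezh1, a histone methyltransferase of PRC2, changed by -0.75 in KSL (SE 0.12, adjusted p = 0.00233) and by -0.53 in KL (SE 0.085, adjusted p = 0.0023), which is under the fold minimum. Kmt2a, the activating methyltransferase, changed by -0.52 in KSL (SE 0.083, adjusted p = 0.00193) and -0.41 in KL (SE 0.071, adjusted p = 0.0034), also under it. Without the fold minimum, 6 regulators were lower and 3 higher in KSL, against 10.5% and 8.50% of all genes, and 7 were lower and 4 higher in KL, against 8.69% and 7.13%. Those higher in KSL were Psip1, Dot1l and Suz12, at 0.31, 0.26 and 0.27, and in KL Wdr5 joined them at 0.21.

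**Figure D5:**
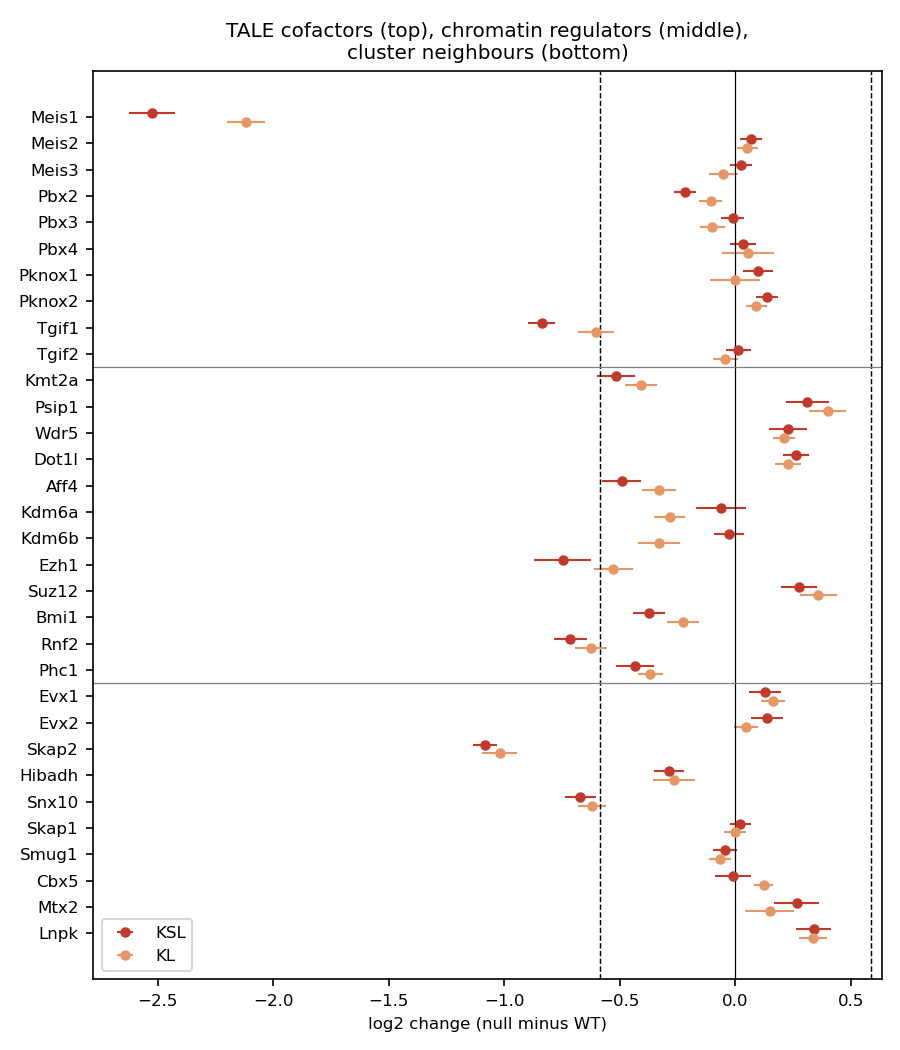
Log2 change, null minus WT, with bars of 1 SE (limma, 4 against 4 arrays) in KSL and KL for 10 TALE genes (top), the 12 Hox regulators with an adjusted p under 0.05 in KSL or KL (middle) and 10 neighbours of the clusters (bottom). Dashed lines mark a 1.5-fold difference; Meis1 lies far to the left at -2.52 and -2.12, and Skap2 at -1.08 and -1.02.

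Skap2 and Snx10, which lie beside the Hoxa cluster, had larger changes than the Hox genes within it. Skap2, an adaptor protein of immune cell signalling, read 8.48, 8.62, 8.45 and 8.56 in KSL labelled null, against 9.63, 9.61, 9.58 and 9.63 in KSL labelled WT. The change was -1.08 in KSL (SE 0.052, adjusted p = 1.4e-06, limma) and -1.02 in KL (SE 0.077, adjusted p = 3.15e-05). Snx10, a sorting nexin and the gene after Skap2, changed by -0.67 in KSL (SE 0.067, adjusted p = 0.000103) and -0.62 in KL (SE 0.061, adjusted p = 0.00013), where it fell under the fold minimum without KL WT replicate 3 (-0.56) or with quantile normalization (-0.583). On the Hoxa13 side, Evx1, a homeobox gene, had changes of 0.13 and 0.16 that did not pass, and Hibadh, a mitochondrial dehydrogenase, had changes of -0.29 (adjusted p = 0.0119) in KSL and -0.27 (adjusted p = 0.0805) in KL. Beside the other clusters no gene of the list was called, against 5.01% of all genes in KSL and 3.99% in KL. With so few genes listed, this count does not set the Hoxa side apart. Evx2 and Lnpk beside Hoxd were at 0.14 and 0.34 in KSL, Skap1 beside Hoxb at 0.02 and Smug1 beside Hoxc at -0.05.

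No noncoding transcript of the clusters was called, against 5.01% of all genes in KSL and 3.99% in KL. Hotair, the long noncoding RNA of the Hoxc cluster, had a mean of 4.27 and changes of 0.06 in KSL (adjusted p = 0.419) and 0.15 in KL (adjusted p = 0.0677). Mir196a-2, a microRNA gene of the Hoxc cluster, had a mean of 4.47 and changes of 0.38 in KSL (SE 0.092, adjusted p = 0.0174), under the fold minimum, and 0.08 in KL (adjusted p = 0.637). The array reads precursors and host transcripts, not the mature microRNA. Hoxb3os, antisense to Hoxb3, was above background at 6.68, with a change of -0.09 in KL (adjusted p = 0.299) and an adjusted p of 0.97 in KSL, and the deposited sources do not say how far its signal is separate from that of Hoxb3.

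The likeness of other genes to the Hoxa genes was measured over the 16 arrays as the Pearson correlation with the mean of the 6 Hoxa genes above background. The highest values were Pim1 (r = 0.906), a serine/threonine kinase, Wdr13 (0.901), Procr (0.900), the protein C receptor used as a stem cell marker, Ddx4 (0.897) and C920009B18Rik (0.882). The arrays share the 2 genotype labels, so these values are a description.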

How the data were processed

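The authors deposited log2 signals of 16 arrays made from probe intensities with robust multi-array averaging (RMA) in Partek 6.6, per the labels. RMA corrects background, sets arrays to a common distribution and summarises the probes of a set, which compresses differences near background. Its options are not given in the sources used here.

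Of 72688 features, 30638 named a single gene, and the brightest probe set of each gene gave 30176 genes. Genotypes were compared within KSL and within KL, and KSL with KL in a fit of all 16 arrays, by lmFit and eBayes of limma 3.58.1 in R 4.3.3, with p-values adjusted by Benjamini-Hochberg over all genes. The test was checked on simulated data. Every Hox member was named, and of the other lists each called gene with up to 3 others. The TALE, regulator, neighbour and marker lists and the Hox members were chosen with earlier results of these data known. Single replicate numbers were not taken as pairs, and replicates 1 and 2 against 3 and 4 was run as a term chosen after seeing the data. Alternatives covered scaling, filters, probe sets, model and single arrays. Fold changes and p-values of the study were not used. Not every Hox gene and HOX partner is reported here.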

Additional observations from a re-analysis of the deposited data

Results flagged for a closer look

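In 6 of the 132 groups of 4 arrays (33 Hox genes in 4 groups), a single array stood far from the other 3, with a gap past Dixon's critical value. Chance gives about 1 such group in 20, so 6 of 132 is not more than chance gives. Hoxa10 was 6.24 on null replicate 2 of KSL, against 6.34 to 6.36 on the others. Hoxc5 was 4.49 on null replicate 4 of KL, against 4.53 to 4.54 on the others, and Hoxc13 was 5.23 on the same array, against 4.92 to 4.97. Hoxb2 was 5.92 on WT replicate 1 of KL, against 5.74 to 5.77. Hoxc6 was 6.03 on WT replicate 2 of KL, against 5.91 to 5.93, and Hoxc8 was 5.24 on WT replicate 4 of KL, against 5.44 to 5.46. No Hox gene had genotype changes that differed between KSL and KL by the test of the difference in limma.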

How the results depend on the processing

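The count of 0 called Hox genes was the same under each alternative with a fold minimum, in all 5 comparisons. Without a fold minimum it was 5 in KSL and 2 in KL. These 2 counts without a fold minimum were then run through the same alternatives, which were chosen after seeing the data. In KSL the count was 2 with the replicate block (Hoxa10 and Hoxa6), 7 (3 lower and 4 higher) in a fit of all 16 arrays with or without that block, 8 with quantile normalization (6 lower and 2 higher), 3 with dim genes left out, 11 by the methods' t-test at an unadjusted p under 0.05 and 3 after Benjamini-Hochberg, and 1 to 4 with single arrays left out, with 1 gene, Hoxa10, without null replicate 3 or 4. In KL it was 5 in a fit of all 16 arrays, with or without the replicate block, 8 by the methods' t-test at an unadjusted p under 0.05, and 2 to 4 with single arrays left out. The called TALE genes in KL were 1 with quantile normalization and 1 to 2 with single arrays left out. Without a fold minimum 9 regulators passed in KSL and 11 in KL. The Hox genes above background numbered 4 with the 99th percentile, 11 with the median of all genes and 0 with the brightest control set, and 19 to 21 with single arrays left out.

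Same-numbered replicates correlated at -0.086 to 0.243 over the 24 pairs, with 9 over 0.1 and 10 of 24 best with their own number, so single numbers were not taken as pairs. Camkk2 was higher on replicates 1 and 2 than on 3 and 4 in every group. With that split as a term, chosen after seeing the data, 5 Hox genes passed in KSL and 3 in KL without a fold minimum, and none with one. The alternatives were tallied for 18 gene results. These were the Hox genes with an adjusted p under 0.05 and the called TALE, regulator and neighbour genes. Other genes named with a call or an adjusted p under 0.05, such as the markers, were not in this tally. Of the 18 results, 11 held under each alternative. None of the 322 alternative values changed sign, and 36 of them fell short of the threshold. Why was not tested. Of the 33 Hox genes, 13 lay near background.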
